A study of Mus musculus with 26 samples.

Results

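The RNA subunit of ribonuclease P, encoded by Rpph1, was followed together with its 2 annotated copies that have counts, Rprl2 and Rprl3, in the left ventricle of mice. The 3 genes were found by their symbols among the 15249 genes of the count table. The design crosses overexpression of Mst-1, a Hippo pathway kinase encoded by Stk4, with knockout of galectin-3 (Gal-3), a secreted lectin encoded by Lgals3. The Mst1Gal3 group carries both alterations (5 libraries), Gal3Ko the Gal-3 knockout alone (8 libraries), MstTg the Mst-1 overexpression alone (7 libraries), and wt neither (6 libraries). All 4 groups are labelled as C57BL6, and mice that overexpress Mst-1 serve in the study to model dilated cardiomyopathy. The labels used here give no promoter for the Mst-1 transgene, no origin for the Gal-3 knockout allele, and no age or sex. The members were chosen because their values were already known to differ between these groups, so their levels and ratios are described here without a test.

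Ribonuclease P is a ribonucleoprotein that cuts the 5′ leader from precursor tRNAs, and its RNA subunit carries the catalytic site. Rpph1 is transcribed by RNA polymerase III, and the RNA works with a set of small proteins (Pop and Rpp subunits). Most of these proteins are shared with ribonuclease MRP, a related enzyme whose RNA, Rmrp, takes part in the maturation of ribosomal RNA. In mitochondria tRNA leaders are cut by a separate enzyme made of protein only.

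In GENCODE M21, on the build GRCm38, Rpph1 (ENSMUSG00000092837) is a 319-base gene on the minus strand at chr14:50807449-50807767. Its start lies 3.44 Mb from that of Lgals3, on the same chromosome. Rprl3 (ENSMUSG00000088025, 290 bases) lies on the minus strand at chr8:3803069-3803358 and Rprl2 (ENSMUSG00000087775, 290 bases) on the plus strand at chr3:22251374-22251663. Another annotated copy, Rprl1, was not analysed here beyond its sequence. The sequences below are shown because, within the part that aligns, reads of the copies can be told from those of Rpph1 only by the bases that differ. In Rpph1, capitals mark a 21-base unit that stands there as a tandem pair. Bases 1 to 257 of Rpph1 (chr14:50807511-50807767) and 1 to 236 of each copy, which align, are shown. In the copies capitals mark the bases that differ from Rpph1.
Rpph1: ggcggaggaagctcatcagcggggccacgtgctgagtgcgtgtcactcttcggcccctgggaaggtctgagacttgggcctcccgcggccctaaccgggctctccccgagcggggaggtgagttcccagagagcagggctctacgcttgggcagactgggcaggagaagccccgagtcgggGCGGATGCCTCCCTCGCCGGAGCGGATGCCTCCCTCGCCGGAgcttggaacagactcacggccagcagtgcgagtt
Rprl3: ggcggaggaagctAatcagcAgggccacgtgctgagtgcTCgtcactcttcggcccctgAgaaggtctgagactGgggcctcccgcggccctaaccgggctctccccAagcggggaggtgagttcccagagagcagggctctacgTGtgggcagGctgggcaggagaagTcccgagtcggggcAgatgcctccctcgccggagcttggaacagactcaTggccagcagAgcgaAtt
Rprl2: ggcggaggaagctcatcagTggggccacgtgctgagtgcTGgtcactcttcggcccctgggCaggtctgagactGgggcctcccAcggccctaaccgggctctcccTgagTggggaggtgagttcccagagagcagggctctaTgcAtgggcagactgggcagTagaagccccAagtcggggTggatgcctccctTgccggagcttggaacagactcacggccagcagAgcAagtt

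Each copy aligned to bases 1 to 257 of Rpph1, counted from its 5′ end, and the last 62 bases of Rpph1 had no match in any copy. Rprl3 was identical to Rpph1 at 93.6% of the 236 aligned bases, with 15 substitutions, and Rprl2 at 93.2%, with 16. For Rprl1 the identity was 91.1%, with 21 substitutions. The same gap of 21 bases, at positions 182 to 202 of Rpph1, was found in the 3 copies: Rpph1 holds the unit GCGGATGCCTCCCTCGCCGGA at 182 to 202 and again up to position 223, and the copies hold it, with substitutions, a single time. The 3 copies shared the substitutions G40T, T75G and T250A, each written with the base of Rpph1 before the position and that of the copy after it. Rprl3 alone had C14A, G21A, G60A and G108A among others, and Rprl2 alone had A62C, G85A, C107T and C111T among others. The longest stretch without any difference from Rpph1 was 37 bases in Rprl3 and 32 bases in Rprl2. Rprl2 and Rprl3 differed from each other at 23 positions over their whole length (92.07% identity) and shared their last 56 bases, nearly all of which lie outside the part that aligns to Rpph1.

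**Figure D1:**
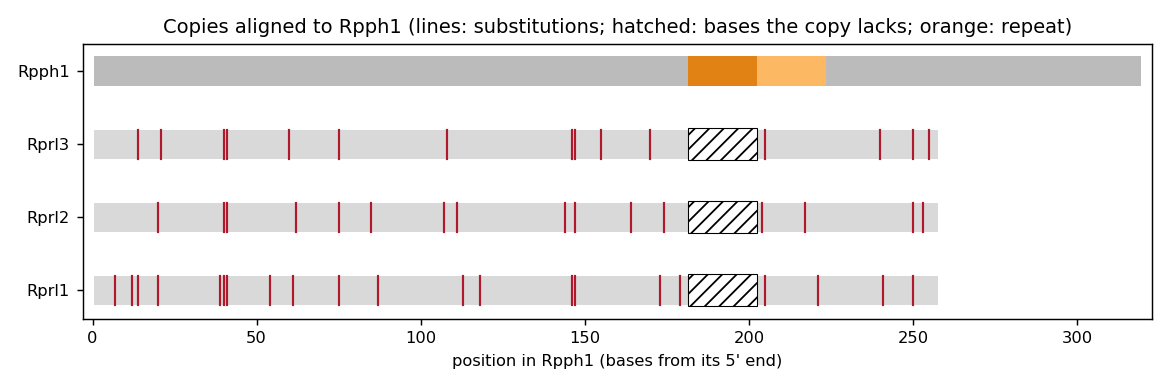
Positions along Rpph1 (bases from its 5′ end) at which the annotated copies differ from it; vertical lines are substitutions, hatched boxes are bases that a copy lacks, and orange boxes are the units of the tandem repeat in Rpph1. All 3 copies lack the 21 bases from 182 to 202, and none aligns to the last 62 bases.

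Library totals ran between 18580405 and 32663735 counts, and CPM are counts scaled to a common total (edgeR, TMM factors). Stk4 had 19919 to 28364 counts in Mst1Gal3, 388 to 718 in Gal3Ko, 22011 to 31877 in MstTg and 454 to 692 in wt, so that its order followed the labels. For Lgals3 the counts were 64 to 151 in Mst1Gal3, 22 to 64 in Gal3Ko, 1126 to 1791 in MstTg and 19 to 49 in wt. It was therefore lower in Mst1Gal3 than in MstTg, whereas the Gal3Ko and wt libraries were alike low, and Lgals3 does not check the label of Gal3Ko. The 8 ventricular cardiomyocyte markers (Myh6, Tnnt2, Myl2 and others) summed to at least 92370 CPM in every library. In 6 libraries (Gal3Ko replicates 4, 5 and 8, Mst1Gal3 replicate 3, MstTg replicate 5 and wt replicate 5) the atrial genes Myl7, Sln and Myl4 together exceeded 30 CPM. Their sum was 4.97 to 126.6 CPM in Mst1Gal3, 2.27 to 122.9 in Gal3Ko, 5.60 to 35.4 in MstTg and 1.19 to 33.1 in wt, and 0 of the 3 were called in any comparison by edgeR or DESeq2, with 1 at an unadjusted p below 0.05, in Gal3Ko against wt. The 4 fibroblast markers (Dcn, Col1a1 and others) summed to 1290 to 1455 CPM in Mst1Gal3 and 1429 to 1722 in MstTg. They summed to 460.6 to 533 in Gal3Ko and 462.2 to 615.6 in wt. The 4 endothelial markers (Pecam1, Kdr and others) summed to 410.7 to 464.5 CPM in Mst1Gal3 and 397.8 to 486.1 in MstTg. They summed to 580.3 to 679.7 in Gal3Ko and 574.7 to 707.4 in wt. Macrophage and red blood cell markers overlapped between the groups. In whole tissue, fewer cells of a type and less RNA per cell cannot be told apart.

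Rpph1 itself had 18178 to 77749 counts in each library, and its levels overlapped between all 4 groups. In Mst1Gal3 the 5 libraries had 1232, 1517, 1560, 3095 and 2036 CPM in the order of their replicate numbers. In Gal3Ko the lowest, median and highest were 1213, 1406 and 2136 CPM, in MstTg 1371, 2051 and 2488 CPM, and in wt 1370, 1595 and 3308 CPM. The highest library of wt, replicate 2, and that of Mst1Gal3, replicate 4, stood above the rest of their own groups, and all 4 ranges overlapped.

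By group mean, MstTg was highest at 2048 ± 421 CPM (SD, n = 7), followed by Mst1Gal3 at 1888 ± 734 CPM (n = 5), wt at 1868 ± 732 CPM (n = 6) and Gal3Ko at 1509 ± 325 CPM (n = 8). Neighbours in this order differed by less than the larger of their SDs. On the log2 scale the difference of group means was -0.26 for Gal3Ko against wt and -0.17 for Mst1Gal3 against MstTg. It was 0.18 for MstTg against wt and 0.27 for Mst1Gal3 against Gal3Ko. Without wt replicate 2 the first of these became -0.08 and the third 0.36, without Mst1Gal3 replicate 1 the second became -0.03, and without Mst1Gal3 replicate 4 the last became 0.07.

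The copies behaved otherwise: they were counted in every library of the Gal-3 knockout and were at or near 0 in all others. Rprl3 had 660, 922, 2369, 1487 and 1194 counts in the 5 Mst1Gal3 libraries. In Gal3Ko it had 925, 667, 1056, 1828, 806, 997, 1505 and 939 counts. In MstTg the counts were 1, 1, 3, 1, 0, 3 and 0, and in wt they were 0, 1, 1, 1, 0 and 2. The lowest knockout library thus held 660 counts, and the highest of the other 13 libraries held 3.

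Rprl2 followed the same division at a lower level. It had 60, 80, 78, 144 and 105 counts in Mst1Gal3 and 80, 51, 63, 134, 40, 76, 73 and 98 counts in Gal3Ko. In MstTg the counts were 1, 0, 0, 1, 1, 0 and 0, and in wt they were 0, 0, 0, 2, 0 and 1. For both copies the knockout groups and the groups without the knockout did not overlap, while Mst1Gal3 and Gal3Ko overlapped each other. Across the table the CPM ranges of 0.138% of genes lay wholly higher in Gal3Ko than in wt, and those of 1.31% lay wholly higher in Mst1Gal3 than in MstTg. Since the members were chosen on these contrasts, nothing is read from their place among those genes.

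Summed over each group and scaled by library size, Rprl3 was 1087-fold higher in Mst1Gal3 than in MstTg (95% counting interval 572 to 2377, 6632 against 9 counts). For Gal3Ko against wt the ratio was 1270 (544 to 3912, 8723 against 5 counts). For Rprl2 the ratio was 229.6 in Mst1Gal3 against MstTg (78.1 to 1117, 467 against 3 counts) and 149 in Gal3Ko against wt (50.8 to 725.5, 615 against 3 counts). These intervals are exact and cover counting error only, not the spread between libraries, and their width comes from the few counts in MstTg and wt. Without the 6 libraries with raised atrial genes, Rprl3 still had 660 to 1505 counts in each knockout library and at most 3 elsewhere. Both copies entered the table, where the lowest mean count of any gene was 10, only through the knockout libraries.

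**Figure D2:**
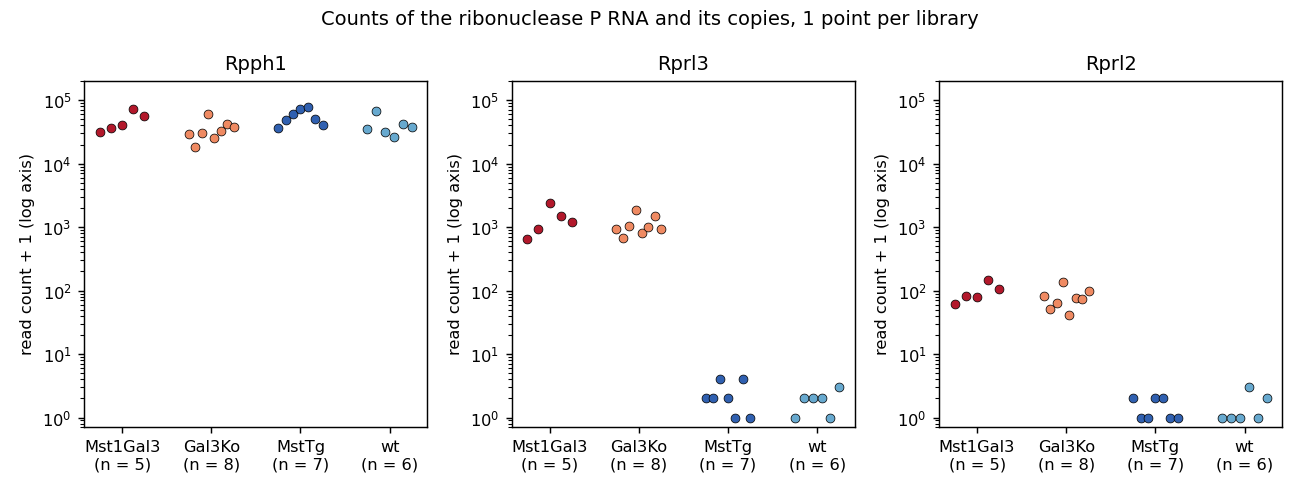
Read counts plus 1 (log axis) of Rpph1, Rprl3 and Rprl2, with 1 point per library and the groups side by side. Rpph1 lies between 18178 and 77749 counts in every group, whereas Rprl3 has at least 660 counts in the 13 knockout libraries and at most 3 in the other 13.

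Relative to Rpph1 the copies were a small addition in the knockout groups, and the larger SD of Rprl3 in Mst1Gal3 came with replicate 3. Rprl3 amounted to 2.90 ± 1.60% of the Rpph1 count in Mst1Gal3 (SD, n = 5) and to 3.20 ± 0.395% in Gal3Ko (n = 8), beside 0.00244 ± 0.0023% in MstTg (n = 7) and 0.00228 ± 0.00215% in wt (n = 6). The 5 Mst1Gal3 libraries had 2.12, 2.50, 5.75, 2.03 and 2.11%, and the Gal3Ko libraries had 2.46 to 3.67%. Apart from Mst1Gal3 replicate 3, which was above every Gal3Ko library, the Mst1Gal3 libraries lay below 7 of the 8 Gal3Ko libraries. Rprl2 amounted to 0.196 ± 0.0124% of Rpph1 in Mst1Gal3 and 0.225 ± 0.0438% in Gal3Ko, and these ranges overlapped (0.186 to 0.217% and 0.158 to 0.281%).

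Together the copies made up 2.99 ± 1.48% of the summed counts of the 3 genes in Mst1Gal3 and 3.31 ± 0.364% in Gal3Ko, beside 0.00322 ± 0.0023% in MstTg and 0.00398 ± 0.00465% in wt. In MstTg replicate 7, wt replicate 1 and wt replicate 5 neither copy had a count, which allows shares of up to 0.00729, 0.00844 and 0.00714% (3 counts of the total). Adding the copies to Rpph1 changed its differences little: the log2 difference became -0.21 for Gal3Ko against wt and -0.12 for Mst1Gal3 against MstTg. Per kilobase of exon, mean levels of Rprl3 were 179 CPM in Mst1Gal3 and 166 CPM in Gal3Ko, those of Rprl2 were 12.7 and 11.6 CPM, and those of Rpph1 were 5918 and 4732 CPM.

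**Figure D3:**
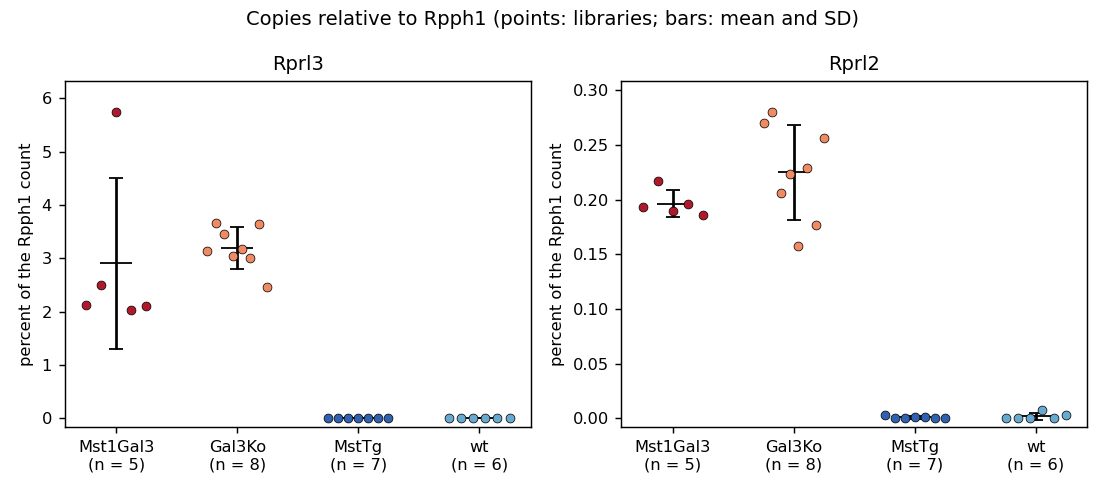
Rprl3 and Rprl2 counts as a percentage of the Rpph1 count (points are libraries, horizontal marks the group mean, bars the SD). Rprl3 lies between 2.03 and 3.67% in 12 of the 13 knockout libraries and at 5.75% in Mst1Gal3 replicate 3, where Rprl2 is not raised.

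The copies did not keep a fixed proportion to each other. The ratio of Rprl3 to Rprl2 counts had a median of 13.1 over the 13 knockout libraries. It was 11.0, 11.5, 30.4, 10.3 and 11.4 in the Mst1Gal3 libraries and 9.58 to 20.6 in Gal3Ko. Mst1Gal3 replicate 3 had the highest ratio, with Rprl3 at 89.7 CPM, against 26.2 to 62.7 CPM in the other 4 Mst1Gal3 libraries, and Rprl2 at 2.95 CPM, within their 2.38 to 6.07 CPM. The same library was also highest in its group for the Y RNAs Rny1 (5.45 CPM) and Rny3 (12.3 CPM), which bind the Ro60 protein, for the vault RNA Vaultrc5 (11.2 CPM), and for the atrial genes (126.6 CPM). The part of these in its Rprl3 count was not tested. Without it, the copies made up 2.33% of the summed counts in Mst1Gal3.

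Rmrp, the RNA of ribonuclease MRP, tracked Rpph1 through every group. It had 520 to 1047 CPM in Mst1Gal3, 411 to 729 in Gal3Ko, 547 to 898 in MstTg and 548 to 1332 in wt. The ratio of Rpph1 to Rmrp counts was 2.65 ± 0.257 in Mst1Gal3, 2.55 ± 0.275 in Gal3Ko, 2.79 ± 0.211 in MstTg and 2.47 ± 0.0973 in wt. Over the 26 libraries it stayed between 2.28 and 3.12, with a coefficient of variation of 9.32%, against 30.9% for Rpph1 CPM and 28.0% for Rmrp CPM. Per kilobase, Rpph1 was at 5918 ± 2300 CPM in Mst1Gal3, against 2581 ± 781 CPM for Rmrp in the same group.

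**Figure D4:**
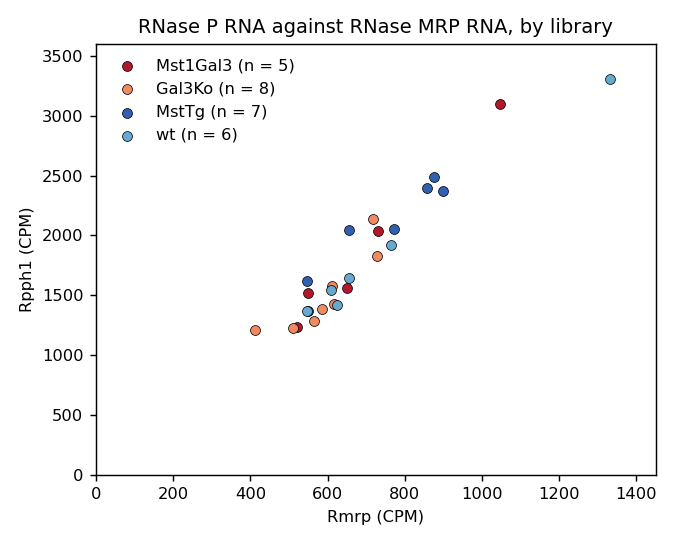
Rpph1 against Rmrp in CPM, with 1 point per library coloured by group. The points of the 4 groups lie along the same band, with wt replicate 2 (3308 and 1332 CPM) and Mst1Gal3 replicate 4 (3095 and 1047 CPM) at its upper end.

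Of all genes, Rmrp was the most like Rpph1 by the Pearson correlation of log2 CPM over the 26 libraries (r = 0.95). It was followed by the Cajal body RNA Scarna6 (0.85), by Fau (0.84), whose product includes a ribosomal protein, by Scarna2 (0.84) and by the ribosomal protein gene Rpl26 (0.82). After the group means were subtracted, Rmrp (0.95), Rps14 (0.92), Scarna2 (0.92), Rps3 (0.90) and the respiratory chain gene Ndufb11 (0.89) were the closest. The genes most like Rprl3 were others: Ccnb1ip1 (0.96), Gm6768 (0.95), Gm3375 (0.90), Gm10704 (0.90) and Tep1 (0.79). Rprl3 was at or near 0 outside the knockout, so this ranking largely follows the knockout split on which the members were chosen. Likeness to Rprl3 within groups was not computed. Between Rpph1 and Rprl3 the correlation was -0.28, a value that mainly sets the knockout libraries against those with at most 3 Rprl3 counts. Rprl3 stayed between 2.46 and 3.67% of the Rpph1 count within Gal3Ko, and between 2.03 and 5.75% within Mst1Gal3. The 2 genes of each pair come from the same libraries and share their depth, and these correlations describe the 26 libraries without a test.

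In all, 3 of 15249 genes (0.0197%) had at most 5 counts in every MstTg and wt library and at least 10 in every knockout library: Rprl3, Rprl2 and Gm6768. The cut-offs describe the pattern of the copies, so Rprl3 and Rprl2 had to meet them. All 3 entered the table only through the knockout libraries, and nothing is read from their number. Gm6768 is a processed pseudogene on chromosome 12 whose sequence is 99.9% identical to the transcript of Ncoa4, a receptor for ferritin turnover encoded on chromosome 14. It had 84 to 122 counts in Mst1Gal3 and 38 to 164 in Gal3Ko, but 0 to 3 in the MstTg libraries and 0 to 4 in the wt libraries. Its share of the sum with Ncoa4 was 25.6 ± 2.88% in Mst1Gal3 and 22.4 ± 7.01% in Gal3Ko, beside 0.266 ± 0.276% in MstTg and 0.505 ± 0.298% in wt. Ncoa4 fell by 0.51 on the log2 scale in Mst1Gal3 against MstTg (SE 0.09, adjusted p = 0.000595, edgeR) and by 0.58 in Gal3Ko against wt (SE 0.08, adjusted p = 8.58e-05). Its mean was 12.0 CPM in Mst1Gal3 and 17.1 in MstTg, where Gm6768 had 4.13 and 0.0446 CPM. In Gal3Ko and wt the mean of Ncoa4 was 16.1 and 24.1 CPM, and that of Gm6768 was 4.56 and 0.123. Sums of Ncoa4 and Gm6768 were not compared between groups, so a fall of Ncoa4 apart from reads placed at Gm6768 was not tested.

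Gm3375 and Gm10704, named for their likeness to Rprl3, are processed pseudogenes too. Gm3375 (chromosome 7) is 98.9% identical to the transcript of the proteasome subunit gene Psmb5 on chromosome 14, and Gm10704 (chromosome 3) is 98.6% identical to that of Rtraf on chromosome 14, listed in the table as 2700060E02Rik. Gm3375 had 90 to 186 counts in Mst1Gal3 and 46 to 137 in Gal3Ko, but 0 to 2 in the MstTg libraries and 0 to 51 in the wt libraries, where the 51 counts belonged to replicate 5. Gm10704 had 18 to 35 counts in Mst1Gal3 and 1 to 26 in Gal3Ko, but 0 to 3 in the MstTg libraries and 0 to 2 in the wt libraries. Psmb5 fell by 0.63 in Mst1Gal3 against MstTg (log2, SE 0.13, adjusted p = 0.00423, edgeR) and by 1.02 in Gal3Ko against wt (SE 0.12, adjusted p = 1.09e-05). Its mean was 11.5 CPM in Mst1Gal3 and 17.7 in MstTg, where Gm3375 had 4.96 and 0.0279 CPM. In Gal3Ko and wt the mean of Psmb5 was 9.18 and 18.7 CPM, and that of Gm3375 was 4.28 and 0.396. A fall of Psmb5 apart from reads placed at Gm3375 was not tested. For 2700060E02Rik the log2 difference was -0.48 in Mst1Gal3 against MstTg (SE 0.10, adjusted p = 0.0022) and -0.30 in Gal3Ko against wt (SE 0.09, adjusted p = 0.194). Its mean was 21.8 CPM in Mst1Gal3 and 30.4 in MstTg, where Gm10704 had 0.932 and 0.0354 CPM.

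Each of these 3 pseudogenes thus lies on a chromosome other than 14 and is most like a transcript of a gene on chromosome 14, the chromosome of Lgals3. Rprl2 and Rprl3 likewise lie elsewhere and align to Rpph1 on chromosome 14, although they are also alike among themselves. The genes on chromosome 14 were matched to the pseudogenes after their values had been seen, and whether such pairs are more frequent here than among other pseudogenes was not tested. Through the pseudogenes, Ncoa4, Psmb5 and 2700060E02Rik were picked along the knockout split. Their adjusted p are therefore given as a description. Starts of Rpph1, Psmb5, Ncoa4 and Rtraf lie 3.44, 7.25, 15.2 and 27.6 Mb from that of Lgals3. With near-identical copies, a read can be placed at either locus, so the counts of each pair are uncertain. How reads that fit several places were counted is not given in the sources used here.

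Around Rpph1 itself, 12 measured genes start within 1 Mb. In Mst1Gal3 against MstTg 4 of them rose and 3 fell, where 4.89% of all genes were called at an adjusted p of at most 0.05 (edgeR), 2.54% higher and 2.35% lower. In Gal3Ko against wt 2 rose and 3 fell, where 0.354% of all genes were called, 0.177% in each direction. These comparisons share no library, but both come from 1 fit to all 26 libraries and so are not independent. In both, 5 genes were called in the same direction: Ccnb1ip1 and Tep1 rose, and Gm26782, Rnase4 and Ang fell. The others called in Mst1Gal3 against MstTg were Klhl33 (log2 1.14, SE 0.24, adjusted p = 0.00341) and Osgep, a tRNA-modifying enzyme (log2 0.26, SE 0.08, adjusted p = 0.0462), whose call was lost on library totals without TMM factors (0.249) and when replicate number was a block (0.082), which leaves 3 that rose. It was also lost without any 1 of 13 libraries: Mst1Gal3 replicates 1, 2 and 4, Gal3Ko replicates 1, 3 and 4, MstTg replicates 1, 2, 3, 4 and 7, and wt replicates 1 and 6. Of all genes, 0.197% were called with the same sign in both. The genes that rose in each comparison, and the 5 shared ones, include Ccnb1ip1. It entered the table only through the knockout libraries and so had to differ. The median log2 fold change of the 12 genes was 0.09 in Mst1Gal3 against MstTg and 0.10 in Gal3Ko against wt, beside 0.02 and 0.00 over all genes. Without the 6 libraries with raised atrial genes, 4 rose and 3 fell in Mst1Gal3 against MstTg, and 1 rose and 3 fell in Gal3Ko against wt.

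Ccnb1ip1, a ubiquitin ligase known for meiotic crossing over, overlaps Rpph1 on the same strand (chr14:50789248-50807732). The first exon of its transcript Ccnb1ip1-202 is identical to bases 36 to 268 of Rpph1, a run of 233 bases. It had 13, 8, 5, 22 and 18 counts in Mst1Gal3 and 18, 16, 37, 37, 25, 21, 14 and 40 in Gal3Ko, and 0 in each of the 7 MstTg and 6 wt libraries. Against a floor of 3 counts over the whole MstTg or wt group, it was at least 32.4-fold higher in Mst1Gal3 than in MstTg (adjusted p = 2.75e-05, edgeR) and at least 50.5-fold higher in Gal3Ko than in wt (adjusted p = 4.13e-06). It entered the table only through the knockout libraries, and so had to differ between the groups, and its calls are given as a description. Its counts did not follow those of Rpph1, which overlapped between the groups. In MstTg and wt, where Ccnb1ip1 had 0 counts, no read of the shared exon was counted for it. Whether such reads were counted for Rpph1 or left out is not stated in the sources used here. The counts of Rpph1, and those of Ccnb1ip1 in the knockout libraries, are uncertain for the shared exon.

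Tep1, which encodes a protein of telomerase and of vault particles, had 35.5 ± 1.63 CPM in Mst1Gal3 against 26.8 ± 1.73 in MstTg (log2 0.40, SE 0.07, adjusted p = 0.000155, edgeR). In Gal3Ko it had 31.3 ± 2.48 CPM against 24.5 ± 2.45 in wt (log2 0.35, SE 0.06, adjusted p = 0.00244). The call in Gal3Ko against wt was lost on library totals without TMM factors (adjusted p = 0.119) and without the 6 libraries with raised atrial genes (0.0633). Gm26782, on the opposite strand and overlapping the 5′ end of Tep1, had 2.40 ± 0.241 CPM in Mst1Gal3 against 13.4 ± 2.21 in MstTg, and 1.85 ± 0.37 in Gal3Ko against 12.8 ± 1.5 in wt. Its log2 fold changes were -2.47 (SE 0.13, adjusted p = 3.61e-15) and -2.78 (SE 0.11, adjusted p = 2.8e-17). The kit marks strand, but the strand setting of the counting is not given, so Tep1 and Gm26782 may share reads.

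Ang and Rnase4 encode secreted ribonucleases of another family, which have no part in ribonuclease P, and their annotated spans overlap. Ang, or angiogenin, which cuts tRNAs under stress, had 0.733 ± 0.209 CPM in Mst1Gal3 against 2.21 ± 0.274 in MstTg, and 0.472 ± 0.236 in Gal3Ko against 1.9 ± 0.448 in wt. It fell by 1.58 on the log2 scale in Mst1Gal3 against MstTg (SE 0.23, adjusted p = 3.54e-05, edgeR) and by 2.03 in Gal3Ko against wt (SE 0.23, adjusted p = 1.19e-06). Rnase4 fell by 0.60 in Mst1Gal3 against MstTg (SE 0.08, adjusted p = 2.48e-05) and by 0.48 in Gal3Ko against wt (SE 0.08, adjusted p = 0.000858). Reads of the shared span cannot be assigned to either gene from the counts.

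**Figure D5:**
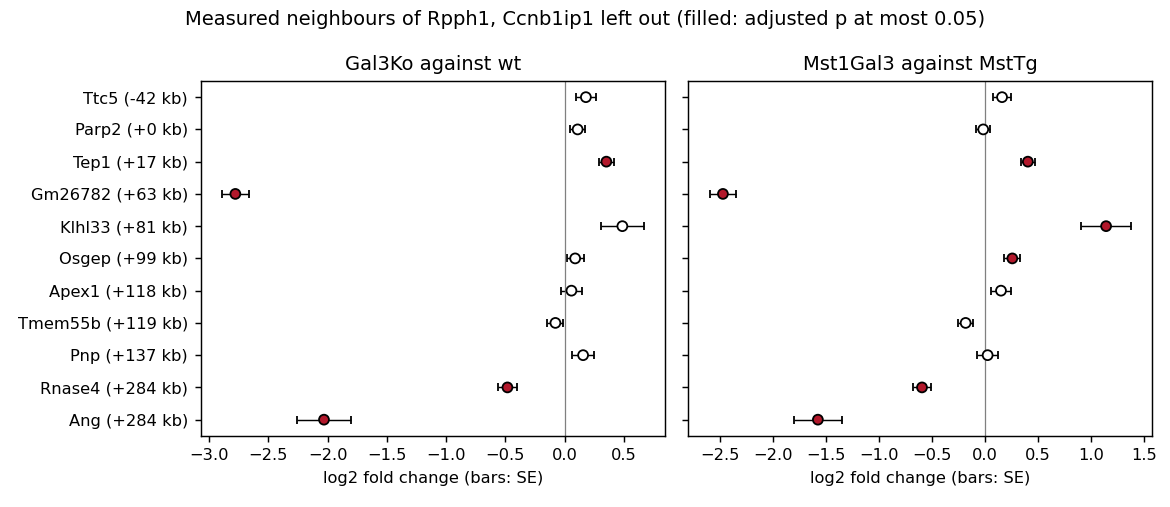
Log2 fold changes (bars: SE) of 11 of the 12 measured genes that start within 1 Mb of Rpph1, in map order with the distance of their starts; filled points have an adjusted p of at most 0.05. Ccnb1ip1 is left out because its counts are 0 in MstTg and wt. Tep1 is higher, and Gm26782, Rnase4 and Ang are lower, in both panels, while Parp2, the closest, is near 0 in both.

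Parp2, a poly(ADP-ribose) polymerase, begins 74 bases from the 5′ end of Rpph1 on the opposite strand. It had 8.82 ± 0.687 CPM in Mst1Gal3, 9.87 ± 0.474 in Gal3Ko, 8.93 ± 0.683 in MstTg and 9.14 ± 0.528 in wt. It was not called in Mst1Gal3 against MstTg (log2 -0.02, SE 0.07, adjusted p = 0.926, edgeR) or in Gal3Ko against wt (0.11, SE 0.06, adjusted p = 0.833). The genes next to the copies were not called in these comparisons either. Beside Rprl3 these are Trappc5, a subunit of a vesicle tethering complex (log2 0.00 in Mst1Gal3 against MstTg and -0.06 in Gal3Ko against wt), and Evi5l, which regulates a Rab GTPase (0.00 and -0.07). Beside Rprl2 they are the corepressor gene Tbl1xr1 (-0.12 and 0.03) and Naaladl2 (-0.17 and 0.05). Adjusted p ran between 0.485 and 0.992 for these 4 genes, and their distances from the copies were 34.8 kb for Tbl1xr1, 1546 kb for Naaladl2, 122 kb for Trappc5 and 363 kb for Evi5l.

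The 11 protein subunits of ribonuclease P and MRP were expressed at 0.259 to 8.44 CPM per kilobase. None of the 11 was called in Mst1Gal3 against MstTg or in Gal3Ko against wt by edgeR. At an unadjusted p below 0.05 there were 4 in Mst1Gal3 against MstTg and 1 in Gal3Ko against wt, and DESeq2 called 1 and 0. Pop1, the largest protein of the complex, had the smallest p in both (log2 -0.40 in each, SE 0.13 in Mst1Gal3 against MstTg and 0.12 in Gal3Ko against wt, adjusted p = 0.0614 and 0.196). Without the 6 libraries with raised atrial genes, Pop5 (log2 0.40, adjusted p = 0.0488) and Rpp21 (0.40, adjusted p = 0.0202) were called higher in Mst1Gal3 against MstTg. The median log2 fold change of the list was 0.17 in Mst1Gal3 against MstTg and 0.00 in Gal3Ko against wt, beside 0.02 and 0.00 over all genes.

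Several of these subunits differed with Mst-1 overexpression, in a background of many calls. Of all genes, 52.5% were called in Mst1Gal3 against Gal3Ko (26.9% higher, 25.6% lower) and 55% in MstTg against wt (28.2% higher, 26.8% lower). In Mst1Gal3 against Gal3Ko 2 of 11 rose and 2 fell, and in MstTg against wt 1 rose and 4 fell. These shares, 4 and 5 of 11, are near or below the background. Rpp25, which binds the RNA as a pair with Pop7 (Rpp20), had 1.43 ± 0.18 CPM per kilobase in Mst1Gal3 against 0.373 ± 0.156 in Gal3Ko, and 1.12 ± 0.199 in MstTg against 0.365 ± 0.167 in wt. Its log2 fold changes were 1.90 (SE 0.24, adjusted p = 3.82e-08, edgeR) and 1.64 (SE 0.25, adjusted p = 1.44e-06). Rpp40 fell by 0.71 in Mst1Gal3 against Gal3Ko (SE 0.14, adjusted p = 4.8e-05) and by 0.91 in MstTg against wt (SE 0.13, adjusted p = 6.39e-07). Rpp21 fell by 0.29 in Mst1Gal3 against Gal3Ko (SE 0.10, adjusted p = 0.0131) and by 0.51 in MstTg against wt (SE 0.10, adjusted p = 3.92e-05). On library totals without TMM factors, which raise the median of all genes to 0.24 in Mst1Gal3 against Gal3Ko and 0.27 in MstTg against wt, 6 rose and 1 fell, and 2 rose and 2 fell. On that scale Rpp14 was at 0.05 in MstTg against wt, in place of -0.20, and the fall of Rpp21 in Mst1Gal3 against Gal3Ko was no longer called (log2 -0.06).

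Of the protein-only mitochondrial enzyme, 3 of 4 listed symbols were measured. In Mst1Gal3 against Gal3Ko and in MstTg against wt 2 of the 3 fell. Of all genes, 52.5% and 55% were called there, 25.6% and 26.8% lower. Hsd17b10, a dehydrogenase that is also a subunit of that enzyme, fell by 0.85 in Mst1Gal3 against Gal3Ko (SE 0.06, adjusted p = 1.21e-13, edgeR) and by 0.99 in MstTg against wt (SE 0.06, adjusted p = 7.32e-16). Its partner Trmt10c, a tRNA methyltransferase, fell by 0.51 (SE 0.09, adjusted p = 8.98e-06) and by 0.59 (SE 0.08, adjusted p = 5.2e-07). The nuclease subunit itself, listed as 1110008L16Rik, was not called (log2 -0.14 and -0.24, adjusted p = 0.292 and 0.0698). In Mst1Gal3 against MstTg, where 4.89% of all genes were called, Hsd17b10 was 0.20 higher (SE 0.06, adjusted p = 0.0435). That call was lost when replicate number was a block (adjusted p = 0.0773) and on library totals (0.261). In Gal3Ko against wt, where 0.354% of all genes were called, none of the 3 was called (0 at an unadjusted p below 0.05, and 0 by DESeq2).

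Other steps of tRNA processing, 11 genes from the 3′ end nucleases Elac1 and Elac2 to the splicing endonuclease subunits and the exporter Xpot, had 0 called in Mst1Gal3 against MstTg and in Gal3Ko against wt by edgeR. DESeq2 also called 0 in both, and at an unadjusted p below 0.05 there were 0 and 1. In Mst1Gal3 against Gal3Ko 2 rose and 1 fell, and in MstTg against wt 1 rose and 2 fell, a smaller share of the 11 than the 52.5% and 55% of all genes called there. Tsen54, a subunit of the tRNA splicing endonuclease, rose by 0.33 (SE 0.11, adjusted p = 0.00972) and 0.29 (SE 0.10, adjusted p = 0.0177). Rtcb, the tRNA ligase, fell by 0.13 and 0.15, and Elac2 fell by 0.18 in MstTg against wt, but on library totals Rtcb was at 0.10 and 0.10 and Elac2 at 0.07.

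RNA polymerase III and its factors transcribe Rpph1. Of 31 of their genes, 0 were called in Mst1Gal3 against MstTg and in Gal3Ko against wt by edgeR or DESeq2, with 1 and 0 at an unadjusted p below 0.05, where edgeR called 4.89% and 0.354% of all genes. In Mst1Gal3 against Gal3Ko 6 rose and 7 fell, and in MstTg against wt 6 rose and 6 fell, fewer of the 31 than the 52.5% and 55% of all genes called there. The subunit gene Polr3g rose by 1.97 on the log2 scale in Mst1Gal3 against Gal3Ko (SE 0.13, adjusted p = 1.68e-14, edgeR) and by 1.60 in MstTg against wt (SE 0.13, adjusted p = 3.98e-12). Polr3gl, whose product takes the place of that of Polr3g in the polymerase, fell by 0.34 (SE 0.07, adjusted p = 6.8e-05) and 0.30 (SE 0.06, adjusted p = 0.000159), and Polr3c fell by 0.37 and 0.43. Rpph1, described without a test, differed by 0.27 in Mst1Gal3 against Gal3Ko and by 0.18 in MstTg against wt. Whether its level depends on the levels of these genes was not tested.

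Among 14 other small structured RNAs, 9 were measured. In Mst1Gal3 against MstTg, where 4.89% of all genes were called, 1 rose, Vaultrc5 (log2 1.0, SE 0.26, adjusted p = 0.0227, edgeR), at 6.14 ± 3.37 CPM against 3.06 ± 0.673. That call was lost without Mst1Gal3 replicate 3 (log2 0.66, adjusted p = 0.12) and when replicate number was a block (0.0902). In Gal3Ko against wt, where 0.354% of all genes were called, 0 of the 9 were called by edgeR or DESeq2, and 0 had an unadjusted p below 0.05. With Mst-1 overexpression 1 of the 9 rose, 1 fell and 7 were not called in each comparison. Of all genes, 52.5% were called in Mst1Gal3 against Gal3Ko and 55% in MstTg against wt. Vaultrc5 rose by 1.75 in Mst1Gal3 against Gal3Ko (SE 0.27, adjusted p = 3.36e-06) and by 0.86 in MstTg against wt (SE 0.29, adjusted p = 0.0136). Terc, the telomerase RNA, fell by 0.86 (SE 0.27, adjusted p = 0.00785) and 0.79 (SE 0.27, adjusted p = 0.0133). Its counts were low, at 8 to 15 in Mst1Gal3, 6 to 29 in Gal3Ko, 5 to 17 in MstTg and 11 to 20 in wt. Over 75 genes of small non-coding RNA biotypes, 1 rose and 0 fell in Mst1Gal3 against MstTg, and 0 rose and 0 fell in Gal3Ko against wt by edgeR (13 and 1 at an unadjusted p below 0.05, and 3 and 0 by DESeq2), beside 4.89% and 0.354% of all genes. In Mst1Gal3 against Gal3Ko 7 of the 75 rose and 5 fell, and in MstTg against wt 2 rose and 6 fell.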

How the data were processed

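Left ventricle RNA was depleted of ribosomal RNA (200 ng input) and made into directional libraries, per the labels' protocols. Per the submitters' processing notes, bcl2fastq 2.19.1.403 and then STAR and featureCounts were used, with the build GRCm38. For the annotation, the strand setting and reads with several matches, the settings were not given in the sources used here. The authors deposited raw read counts per gene, whole numbers for 15249 genes and 26 libraries.

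Counts were fitted with edgeR 4.0.16 in R 4.3.3: TMM factors, filterByExpr (0 genes removed), estimateDisp, robust glmQLFit and glmQLFTest. All 26 libraries entered 1 fit with a mean per group, and p-values were two-sided and Benjamini-Hochberg adjusted over all genes (threshold 0.05). DESeq2 1.42.0 was an alternative, as were library totals, no filter, a replicate block and leaving out each library. Log2 CPM used a prior count of 0.5. Positions and transcripts came from GENCODE M21. Copies were aligned with Biopython 1.88 and the closest transcripts found with BLAST 2.17.0. The steps were tested on simulated counts. The labels do not say that replicates are separate animals, so p-values reflect only the spread among these libraries, which may be technical. No replicate pair looked like 1 library deposited again (chi-square per degree of freedom at least 5.79). Named genes were the members, Stk4 and Lgals3, up to 4 genes of a list with the smallest p, neighbours called in both Gal-3 comparisons, the nearest genes, and the genes most like a member. Klhl33, Osgep and the source genes of the pseudogenes fall outside this rule. The members and lists were chosen with earlier results of these data known.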

Additional observations from a re-analysis of the deposited data

Results flagged for a closer look

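Of 108 group values checked for a library far from the rest of its group, 13 stood out, where chance gives about 1 in 20. Among the members and their ratios these were Rpph1 in wt replicate 2 (3308 CPM, others 1370 to 1920), the Rprl3 share of Rpph1 in Mst1Gal3 replicate 3 (5.75%, others 2.03 to 2.50%) and the ratio of Rprl3 to Rprl2 in that library (30.4, others 10.3 to 11.5). The ratio of Rpph1 to Rmrp was low in wt replicate 6 (2.28, others 2.48 to 2.54). In wt replicate 2 Rmrp (1332 CPM), Rnase4 (39.1 CPM) and Vaultrc5 (2.96 CPM) were high as well, while its ratio of Rpph1 to Rmrp, 2.48, was within its group.

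Mst1Gal3 replicate 3 was also high for Rny1 (5.45 CPM, others 1.27 to 2.15). Mst1Gal3 replicate 4 was high for Gm3375 (7.84 CPM) and for Psmb5 (16.3 CPM) and low for Rpp40 (1.35 CPM, others 2.09 to 2.34). Gm3375 was at 2.33 CPM in wt replicate 5, where the other wt libraries had at most 0.0462 CPM. Rtraf was at 41.1 CPM in Gal3Ko replicate 2, against 22.8 to 30.6 CPM in the others.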

How the results depend on the processing

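The log2 differences of Rpph1 kept their direction under other scalings, with the copies added and without each library in turn. Leaving out each library gave -0.34 to -0.08 for Gal3Ko against wt, -0.36 to -0.03 for Mst1Gal3 against MstTg, 0.10 to 0.36 for MstTg against wt and 0.07 to 0.41 for Mst1Gal3 against Gal3Ko. The share of the copies was 2.33 to 3.19% in Mst1Gal3 and 3.24 to 3.40% in Gal3Ko without each library in turn, against 0.00276 to 0.00376% in MstTg and 0.00252 to 0.00478% in wt. Genes called in Gal3Ko against wt numbered 54 by edgeR, 89 by DESeq2 and 33 without the 6 libraries with raised atrial genes, a setting chosen after seeing the data, and 38 to 80 without each library in turn. In Mst1Gal3 against MstTg 746 were called, and 469 (without Mst1Gal3 replicate 1) to 1040 without each library in turn. The other counts stayed within 1.5 times.

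On library totals without TMM factors, directions reversed in MstTg against wt for Elac2 (0.066), Parp2 (0.22), Rpp14 (0.048), Rtcb (0.098) and Tbl1xr1 (0.20). They reversed in Mst1Gal3 against Gal3Ko for Elac2 (0.16), Evi5l (0.21), Gtf3c1 (0.065), Parp2 (0.074), Rtcb (0.099), Tbl1xr1 (0.040) and Trappc5 (0.18). The shift of the median of all genes on that scale goes with these. Genes of the mitochondrial genome held 15.7 to 23.0% of the counts in Mst1Gal3 and 14.4 to 23.3% in MstTg. In Gal3Ko they held 26.8 to 38.3%, and in wt 29.2 to 35.5%. The part of this difference in the shift was not tested. On library totals 7789 genes were higher and 2166 lower in MstTg against wt, beside 4302 and 4083 with TMM factors. In Mst1Gal3 against Gal3Ko 7374 were higher and 1929 lower, beside 4108 and 3905. In Gal3Ko against wt 16 were higher and 45 lower, beside 27 and 27, and in Mst1Gal3 against MstTg 136 and 558, beside 387 and 359. Gm3375 ran between -4.10 and 1.14 in MstTg against wt without each library in turn, reversed without wt replicate 5, and was at 1.37 without the libraries with raised atrial genes. Of the values of named genes under alternatives, 152 lost a call, 49 gained one and 14 reversed.

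Replicate numbers did not pair the libraries: deviations of 34 same-numbered pairs correlated between -0.28 and 0.23 (median 0.007). With replicate number as a block, counts of genes called were 42, 608, 8301 and 7911 for Gal3Ko against wt, Mst1Gal3 against MstTg, MstTg against wt and Mst1Gal3 against Gal3Ko, and the Rpph1 differences were -0.31, -0.20, 0.14 and 0.25. Depth limits the copies in MstTg and wt, where a library holds at most 3 counts of each.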
